A study of Homo sapiens with 6 samples.

Results

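The genes described are ALOX15 and ALOXE3, both lipoxygenases, the NADPH oxidase NOX1, the haem oxygenase HMOX1 and the oxidative stress gene OSGIN1. They were chosen by symbol for their links to lipid peroxidation and redox control, and they are 5 of the 1705 genes in the deposited table. Each symbol had 1 row. RNA was sequenced from PC9-GR cells and from PC9 cells, with 3 libraries each from separate cultures. PC9 is a human lung adenocarcinoma line of epithelial cells, and both groups carry the same deletion in exon 19 of EGFR. PC9-GR is its derivative selected with gefitinib, an inhibitor of the EGFR kinase, at doses raised stepwise between 0.5 and 10 µM. PC9-GR cells were kept at 10 µM and then grown for 7 days without drug before RNA was taken, so the comparison is between a selected line and its parent and not between drug and no drug. A single resistant line was studied, and whether it is 1 clone is not given in the sources used here.

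Ferroptosis is an iron-dependent death in which polyunsaturated fatty acids in membrane phospholipids are oxidised faster than glutathione peroxidase can reduce them. Lipoxygenases insert oxygen into such fatty acids, NADPH oxidases release superoxide, and haem oxygenase frees iron from haem while making the antioxidant precursor biliverdin. Many genes of redox defence are switched on by the transcription factor NRF2 through antioxidant response elements, and the series title connects susceptibility to ferroptosis with gefitinib resistance.

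The deposited table is a selection of changed genes. All 1705 have an authors' log2 ratio past 1 in either direction and an authors' p-value of at most 0.04965, and the same 6 libraries made that choice. The tests below therefore describe genes already picked as different. Values are FPKM, fragments scaled for transcript length and for library size by the authors, and sequencing depth per library is unknown. The listed genes summed to 16705 to 17114 FPKM in the PC9-GR libraries and to 28346 to 30541 FPKM in the PC9 libraries. None of the 9 epithelial markers chosen to check the label is in the table, so epithelial identity could not be checked from them. Of 11 lung adenocarcinoma lineage markers 3 are in the table, with 4 entries. All 4 entries were called lower in PC9-GR, as were 51.3% of all tested genes. Their median log2 difference was -2.20, with CEACAM6 counted once per entry. FOXA1 was 2.64-fold lower, LPCAT1 2.13-fold lower, and CEACAM6 82.6-fold and 61.0-fold lower at its entries, whose reads can be shared. The 82.6-fold entry averaged 0.101 FPKM in PC9-GR. It passed the 1 FPKM filter given below through the PC9 libraries alone. The size of the LPCAT1 difference depended on scaling. Its log2 difference was -1.08 as deposited, -0.28 with equal library totals and -0.23 under quantile normalization. It was called lower in each (limma adjusted p = 0.0192 with equal totals and 0.0290 under quantile normalization). These lineage markers moved with the same comparison as the 5 genes, and their part in the results was not tested.

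ALOX15, HMOX1 and OSGIN1 rose 4.95-fold, 2.26-fold and 1.98-fold in PC9-GR, while ALOXE3 and NOX1 were near or below 1 FPKM in both lines and did not reach the filter for that test. A gene was tested with limma on log2(FPKM + 1) if it reached 1 FPKM in 3 or more of the 6 libraries, which left 1207 genes. Of the 5 genes, 3 passed, and all 3 were called higher at an adjusted p under 0.05, against 48.4% of all tested genes called higher and 51.3% called lower. The other two, ALOXE3 and NOX1, each reached 1 FPKM in 1 library and were compared with a two-sided exact permutation test. The libraries of the 2 lines did not overlap for any of the 5 genes, 4 of them higher and 1 lower in PC9-GR. Over all listed genes, 94.8% did not overlap, 48.3% higher and 46.6% lower in PC9-GR, so the separation is that of the table at large. With the filter on low values left off, limma also called ALOXE3 higher (adjusted p = 0.0342) and NOX1 lower (adjusted p = 0.0187), and it then called 49.6% of all 1705 genes higher and 47.5% lower. In bulk RNA, a change in the number of expressing cells and a change in RNA per cell cannot be told apart.

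**Figure D1:**
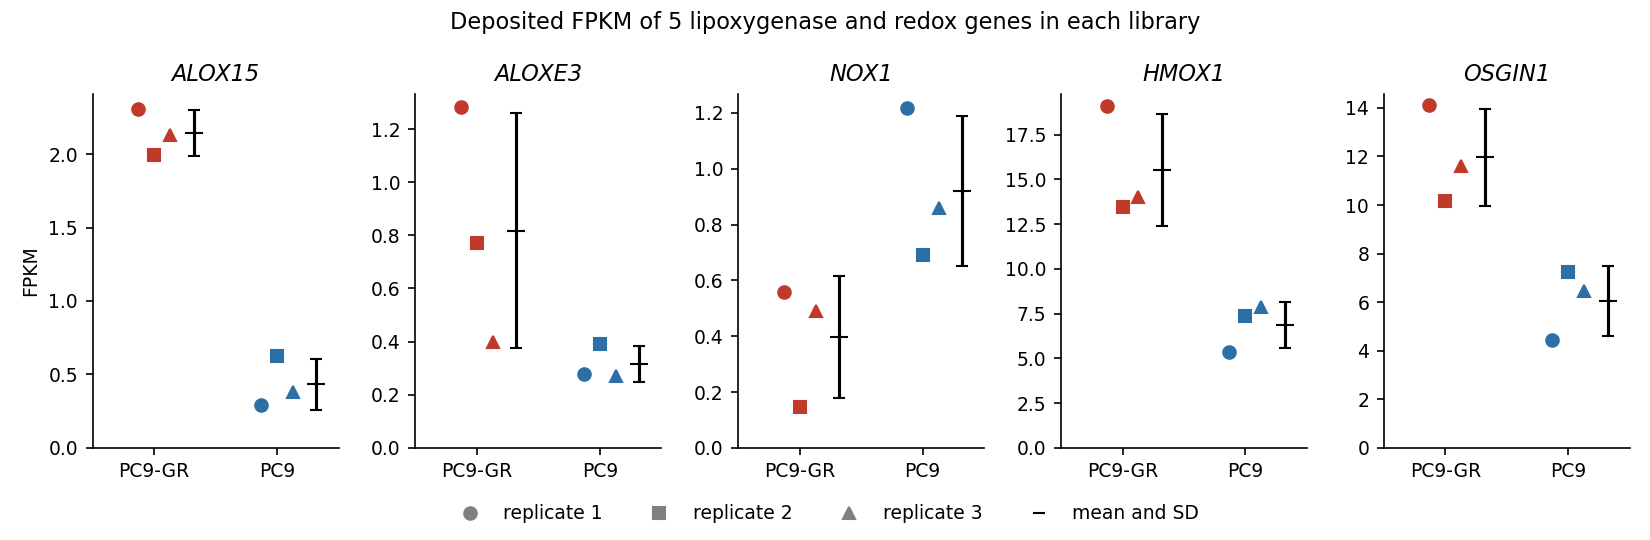
FPKM of each gene (y axis, from 0, a separate scale per gene) in the 3 PC9-GR libraries (red, left) and the 3 PC9 libraries (blue, right); marker shape gives the replicate and the black bar the mean with SD. ALOX15, ALOXE3, HMOX1 and OSGIN1 lay higher in every PC9-GR library than in any PC9 library, and NOX1 lay lower.

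ALOX15, which oxygenates arachidonic and linoleic acid, had the largest relative difference of the 5. It measured 2.31, 2.00 and 2.13 FPKM in the PC9-GR libraries, against 0.291, 0.626 and 0.383 FPKM in the PC9 libraries. Every PC9-GR library was near 2 FPKM and every PC9 library was below 1 FPKM. The means were 2.14 ± 0.158 FPKM in PC9-GR and 0.433 ± 0.173 FPKM in PC9 (SD, n = 3 each), a 4.95-fold ratio of means. Its log2 difference on the FPKM + 1 scale was 1.14 with a standard error of 0.12, and limma gave an adjusted p of 1.08e-05. The pseudocount compresses so low a gene: with 0.1 in place of 1 the log2 difference was 2.12. ALOX15 reached the filter through the PC9-GR libraries alone, so it could hardly have been tested without also differing. Its spread was narrow in PC9-GR, with a coefficient of variation of 7.34%, and wide in PC9, at 39.9%. The median over tested genes was 14.7% in PC9-GR and 14.0% in PC9. Over genes below the filter, nearer to the level of ALOX15 in PC9, it was 29.3% in PC9-GR and 33.0% in PC9. The authors' deposited table gives ALOX15 a log2 ratio of 2.35, larger in size than that of 78.0% of the listed genes.

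ALOXE3 is best known from the epidermis, where it isomerises the hydroperoxides that ALOX12B makes for the lipid barrier of the skin. It measured 1.28, 0.773 and 0.398 FPKM in the PC9-GR libraries, against 0.278, 0.392 and 0.272 FPKM in the PC9 libraries. The lowest PC9-GR library stood only just above the highest PC9 library, 0.3984 against 0.3919 FPKM. Means were 0.818 ± 0.443 FPKM in PC9-GR and 0.314 ± 0.0676 FPKM in PC9 (SD, n = 3 each), a 2.61-fold ratio, and the coefficient of variation in PC9-GR was 54.2%. The exact permutation test gave p = 0.1, the smallest that 3 against 3 libraries allow. With median-ratio scaling and with quantile normalization the groups overlapped, and the exact permutation p was 0.2 and 0.3. Without PC9-GR replicate 1 the log2 difference was 0.26, against 0.44 with all libraries. The authors' deposited table lists ALOXE3 with a q-value of 0.0075.

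RefSeq lists 3 start sites for ALOXE3. Its promoter windows, 250 bases before to 50 after each start, were searched on both strands for the core of the antioxidant response element, TGACNNNGC, and for the AP-1 site, TGACTCA. Of its 3 windows, 1 held a match to the antioxidant response element core, 82 bases before the start, at chr17:8118254-8118553 on the minus strand of GRCh38.p14. The window follows, with the match in capitals, because this motif is the one named for the redox genes.
ALOXE3 window: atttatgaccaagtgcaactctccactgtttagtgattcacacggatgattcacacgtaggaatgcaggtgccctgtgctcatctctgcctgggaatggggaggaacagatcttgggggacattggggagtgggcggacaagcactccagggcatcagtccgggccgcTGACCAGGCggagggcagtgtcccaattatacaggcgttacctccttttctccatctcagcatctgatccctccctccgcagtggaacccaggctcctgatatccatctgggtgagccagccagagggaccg
The core occurred in 13.3% of the 35116 windows in the RefSeq set and the AP-1 site in 4.95%, so a single match in 3 windows is a description of the letters and not of a bound site. RefSeq windows were found for 3 of the 5 genes, ALOXE3, NOX1 and OSGIN1. The NOX1 window held neither motif.

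The 2 lipoxygenases are both on chromosome 17 and are placed apart. ALOX15 (ENSG00000161905) lies at 4534196 to 4545589 and ALOXE3 (ENSG00000179148) at 7999217 to 8022365 in the table, which names no build. Neither shares its locus with another listed gene. The nearest listed gene to ALOXE3 is HES7, 1542 bp away, with an authors' log2 ratio of -1.31, opposite in direction to ALOXE3. The nearest to ALOX15 is SPNS2, 75270 bp away, with an authors' log2 ratio of -1.52, again the opposite direction. Within a library the ratio of ALOX15 to ALOXE3 was 1.80, 2.58 and 5.34 in PC9-GR and 1.05, 1.60 and 1.41 in PC9, a ratio that a single scale factor per library leaves as it is. The other 5 names on the lipoxygenase list, among them ALOX5, ALOX12 and ALOX12B, are outside the table and were not analysed here.

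NOX1, the catalytic subunit of a superoxide-producing NADPH oxidase best known from colon epithelium, was the only gene of the 5 with lower values in PC9-GR. It measured 0.557, 0.146 and 0.489 FPKM in the PC9-GR libraries, against 1.22, 0.690 and 0.858 FPKM in the PC9 libraries. Replicate 2 was the lowest of its line in both groups, and the highest PC9-GR library was below the lowest PC9 library. The lowest PC9-GR value of ALOXE3 was in replicate 3, so no single library held the low values of both genes. Means were 0.397 ± 0.220 FPKM in PC9-GR and 0.921 ± 0.269 FPKM in PC9 (SD, n = 3 each), 2.32-fold lower in PC9-GR. The exact permutation test gave p = 0.1, the smallest possible. With libraries scaled to equal totals over the table the groups overlapped, at 0.200 to 0.775 FPKM in PC9-GR and 0.539 to 0.997 FPKM in PC9, the log2 difference was -0.17 instead of -0.46, and the exact permutation p was 0.6. In the authors' deposited table NOX1 has a q-value of 0.0641, the only one of the 5 above 0.05, where 88.4% of listed genes were below it. NOX1 (ENSG00000007952) is on chromosome X at 100098312 to 100129334, and its nearest listed gene, BEX4, is 2340685 bp away. Of 19 NADPH oxidase and oxidoreductase names, including DUOX1, DUOX2, CYBB, CYBA and POR, only NOX1 is in the table.

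HMOX1, which opens the haem ring and releases iron, carbon monoxide and biliverdin, had the highest mean of the 5 in both lines. It measured 19.1, 13.5 and 14.0 FPKM in the PC9-GR libraries, against 5.38, 7.36 and 7.84 FPKM in the PC9 libraries. The lowest PC9-GR library was well above the highest PC9 library. Means were 15.5 ± 3.11 FPKM in PC9-GR and 6.86 ± 1.31 FPKM in PC9 (SD, n = 3 each), a 2.26-fold ratio. The log2 difference was 1.07 with a standard error of 0.17, a 95% interval of 0.69 to 1.45 and a limma adjusted p of 0.000164. It was 1.80 with equal library totals and 0.79 with median-ratio scaling, called in both. HMOX1 (ENSG00000100292) lies on chromosome 22 at 35776353 to 35790207 in the table. Of 29 names on the haem and iron list, among them TFRC, FTH1, FTL, SLC40A1, HMOX2 and BLVRB, HMOX1 alone is in the table.

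OSGIN1, a growth inhibitor induced by oxidative stress and a known target of NRF2, was also called higher. It measured 14.1, 10.2 and 11.6 FPKM in the PC9-GR libraries, against 4.42, 7.24 and 6.47 FPKM in the PC9 libraries. Again no PC9 library reached the lowest PC9-GR library. Means were 12.0 ± 1.99 FPKM in PC9-GR and 6.05 ± 1.46 FPKM in PC9 (SD, n = 3 each), a 1.98-fold ratio. The log2 difference was 0.89 with a standard error of 0.18, a 95% interval of 0.49 to 1.29 and a limma adjusted p of 0.000763. It was 1.61 with equal library totals and 0.62 with median-ratio scaling, called in both. OSGIN1 (ENSG00000140961) is on chromosome 16, and its locus in the table, 83932730 to 83999937, is 67208 bp wide, whereas RefSeq gives the gene 13093 bp. MLYCD and NECAB2 are its coding neighbours there, and reads from a neighbour inside so wide a locus could not be told apart from these values. The OSGIN1 window of GRCh38.p14, chr16:83952990-83953289 on the plus strand, held no antioxidant response element core and 1 AP-1 site, 97 bases before the start. The AP-1 site occurred in 4.95% of the 35116 windows, and a match describes the letters and not a bound site. Sequence outside the window was not searched, so elements farther from the start would be missed. The window is shown with the AP-1 site in capitals. HMOX1 had no window to set beside it, so a motif shared by these genes was not looked for.
OSGIN1 window: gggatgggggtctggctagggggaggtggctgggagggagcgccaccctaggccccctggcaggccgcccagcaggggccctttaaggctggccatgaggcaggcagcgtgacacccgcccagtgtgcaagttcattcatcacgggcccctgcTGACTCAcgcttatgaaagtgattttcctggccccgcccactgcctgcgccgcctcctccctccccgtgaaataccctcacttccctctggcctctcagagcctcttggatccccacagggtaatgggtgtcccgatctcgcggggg

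HMOX1 and OSGIN1 varied partly alike from library to library. PC9-GR replicate 1 was the highest and PC9-GR replicate 2 the lowest of its line for both genes. PC9 replicate 1 was the lowest of its line for both, while the highest was replicate 3 for HMOX1 and replicate 2 for OSGIN1. ALOX15 had the same order of libraries as OSGIN1 in each line, so this likeness is not particular to HMOX1 and OSGIN1. The ratio of HMOX1 to OSGIN1 within a library was 1.35, 1.32 and 1.21 in PC9-GR and 1.22, 1.02 and 1.21 in PC9, means of 1.29 ± 0.0779 in PC9-GR and 1.15 ± 0.114 in PC9 (SD, n = 3 each). The 2 lines overlapped in this ratio. Likeness of pattern was measured as the root mean square gap between mean-centred log2(FPKM + 1) values over the 6 libraries, where 0 is identical. For OSGIN1 the closest tested genes included LRRIQ3 at 0.11 and HMOX1 at 0.13. For HMOX1 they were FERMT3 at 0.05, HSPB8 at 0.09 and IDI1 at 0.11. For ALOX15 they were ARMC9 at 0.07, ARTN at 0.08 and ECM1 at 0.09. The measure is dominated by the difference between lines that all listed genes share.

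**Figure D2:**
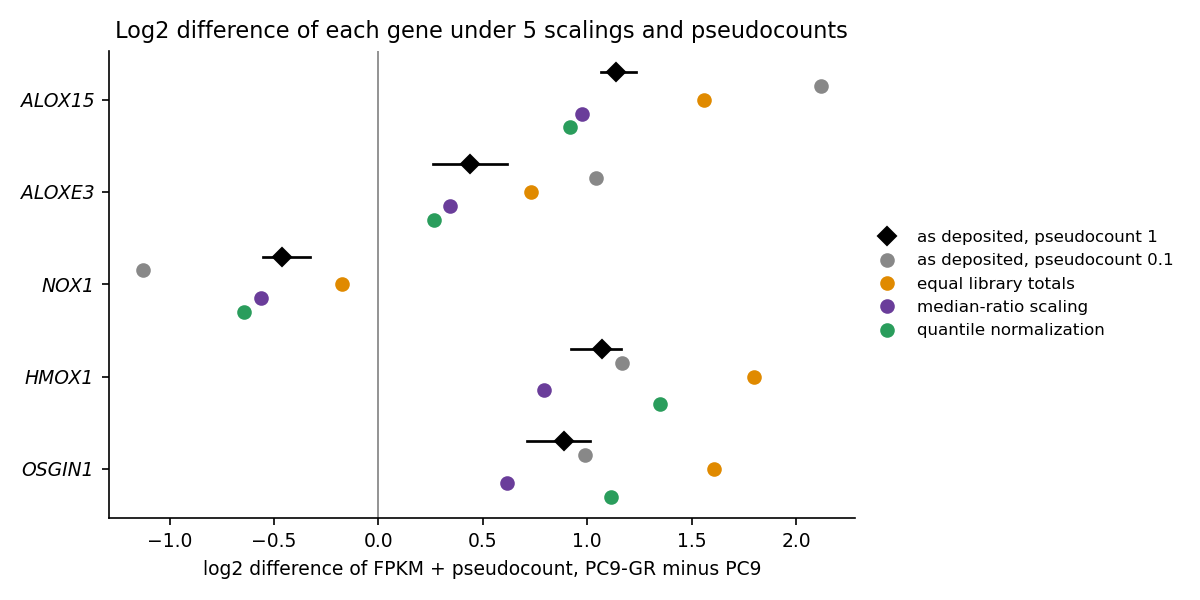
Log2 difference of each gene, PC9-GR minus PC9 (x axis), as deposited with a pseudocount of 1 (black diamond, with a line for the range when 1 library is left out) and under a pseudocount of 0.1 and 3 scalings (coloured points). All points of ALOX15, ALOXE3, HMOX1 and OSGIN1 lie above 0 and all points of NOX1 lie below 0, with NOX1 closest to 0, at -0.17, under equal library totals.

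FPKM is per length, so levels can be ordered between genes. In PC9-GR the order was HMOX1 at 15.5, OSGIN1 at 12.0, ALOX15 at 2.14, ALOXE3 at 0.818 and NOX1 at 0.397 FPKM. In PC9 it was HMOX1 at 6.86, OSGIN1 at 6.05, NOX1 at 0.921, ALOX15 at 0.433 and ALOXE3 at 0.314 FPKM. The library ranges of HMOX1 and OSGIN1 overlapped in each line, as did those of ALOXE3 and NOX1 in PC9-GR and of ALOX15 and ALOXE3 in PC9. The other neighbours in each order were separated. NOX1 thus stood above ALOX15 in every PC9 library and below it in every PC9-GR library.

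The differences of the 5 genes were set beside those of all listed genes. By the authors' deposited table, 3.52% of listed genes had a smaller absolute log2 ratio than OSGIN1, 11.8% a smaller one than NOX1, 30.4% than HMOX1 and 35.8% than ALOXE3. The smallest in the table is 1.0002 and that of OSGIN1 is 1.02. Among tested genes with a positive log2 difference the median was 1.10, beside 1.14 for ALOX15, 1.07 for HMOX1 and 0.89 for OSGIN1.

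**Figure D3:**
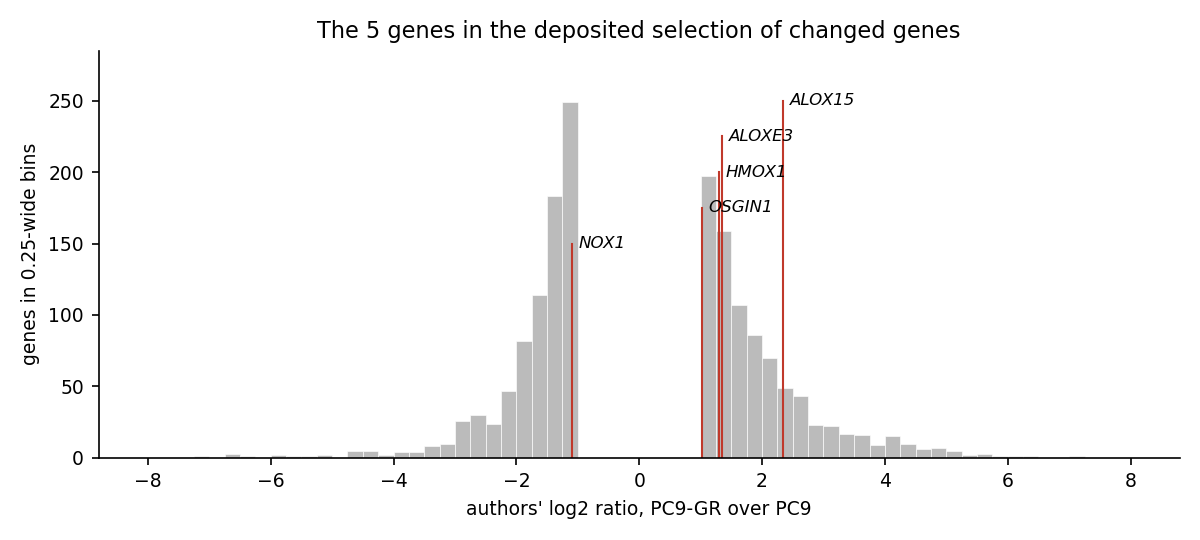
Histogram of the authors' log2 ratio of PC9-GR over PC9 (x axis) for the listed genes in bins of 0.25 (y axis, genes), with red lines at the 5 genes; 51 genes beyond 8 in either direction are not drawn. No listed gene lies between -1 and 1, and OSGIN1 at 1.02 and NOX1 at -1.09 stand at the inner edges.

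Other genes of the same pathways were read from 9 lists holding 167 names besides the 5 genes. Of these, 18 are in the table and 16 were tested, with 10 called higher and 6 lower. Over all 1207 tested genes 48.4% were called higher and 51.3% lower, so a call by itself sets no listed gene apart. The names outside the table were not analysed here, and they include GPX4, SLC7A11, ACSL4 and all 12 NRF2 pathway regulators, such as NFE2L2 and KEAP1.

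Genes that shape the fatty acids open to peroxidation moved in both directions. Of 18 names 4 are in the table, with 3 called higher and 1 lower, beside 48.4% and 51.3% of all tested genes. Their median log2 difference was 0.93. The median over all tested genes was -0.63, but it was 0.29 over all 1705 genes without the filter on low values. Little can therefore be read from the gap between the medians. SCD, which makes monounsaturated fatty acids, rose to 17.0, 28.4 and 21.5 FPKM in PC9-GR, against 0.859, 1.55 and 0.897 FPKM in PC9 (limma adjusted p = 3.70e-07). The desaturase FADS2 rose 2.12-fold (limma adjusted p = 4.48e-05), and the elongase ELOVL2 rose to 5.99 ± 0.760 FPKM in PC9-GR, against 2.88 ± 0.375 FPKM in PC9 (limma adjusted p = 0.000245). FADS2 and ELOVL2 act in the synthesis of long polyunsaturated fatty acids, the kind that lipoxygenases use. ACSL5, an acyl-CoA synthetase, fell to 7.47 ± 0.164 FPKM in PC9-GR, against 21.6 ± 1.58 FPKM in PC9 (limma adjusted p = 1.33e-06).

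From the ferroptosis defence list 3 of 21 names are in the table and all 3 were called higher, as were 48.4% of all tested genes, with a median log2 difference of 1.22. CTH, which makes cysteine by transsulfuration, measured 23.0, 30.0 and 33.1 FPKM in PC9-GR, against 9.91, 14.1 and 11.2 FPKM in PC9, a 2.45-fold rise (limma adjusted p = 5.02e-05). SQLE, an enzyme of sterol synthesis, rose 2.48-fold (limma adjusted p = 4.79e-06). CHAC1 is on the list but breaks glutathione down. It rose to 1.49 ± 0.404 FPKM in PC9-GR, against 0.710 ± 0.0896 FPKM in PC9 (limma adjusted p = 0.00292), and that call was lost under quantile normalization (limma adjusted p = 0.0783). Like ALOX15, CHAC1 passed the filter through the PC9-GR libraries alone.

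Of 32 NRF2 target names 4 are in the table. HMOX1, OSGIN1 and GSTM3 were called higher and ALDH3A1 lower, with a median log2 difference of 0.98. Over all tested genes 48.4% were called higher and 51.3% lower, so these calls do not set the list apart. The median over all tested genes was -0.63, and 0.29 over all 1705 genes without the filter on low values. The glutathione transferase GSTM3 measured 37.5, 38.7 and 38.1 FPKM in PC9-GR, against 16.1, 15.1 and 15.7 FPKM in PC9, a 2.44-fold rise (limma adjusted p = 1.39e-06). ALDH3A1, which oxidises aldehydes formed in lipid peroxidation, went the other way, at 14.4, 16.8 and 9.37 FPKM in PC9-GR, against 102.8, 122.7 and 89.5 FPKM in PC9, 7.77-fold lower in PC9-GR (limma adjusted p = 8.33e-07). No other name of the list, NQO1, GCLM, TXNRD1 and SRXN1 included, is in the table.

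Of 28 antioxidant enzyme names 4 are in the table, with 2 called higher and 2 lower, beside 48.4% and 51.3% of all tested genes. Their median log2 difference was 0.02. MSRB3, which repairs oxidised methionine, rose to 3.84 ± 0.628 FPKM in PC9-GR, against 0.473 ± 0.0647 FPKM in PC9 (limma adjusted p = 1.70e-06), and it too passed the filter through PC9-GR alone. The secreted peroxidase GPX3 rose 2.05-fold to 85.0 ± 2.32 FPKM (limma adjusted p = 1.21e-05). TXNIP, an inhibitor of thioredoxin, fell to 4.03 ± 1.54 FPKM in PC9-GR, against 12.3 ± 1.92 FPKM in PC9 (limma adjusted p = 9.34e-05). The glutaredoxin GLRX fell to 25.1 ± 1.57 FPKM in PC9-GR, against 51.3 ± 9.58 FPKM in PC9 (limma adjusted p = 8.35e-05), and that call was lost with equal library totals (limma adjusted p = 0.149).

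The epidermal lipid barrier list, to which ALOXE3 belongs, has 6 of 20 names in the table, of which 3 were tested. Of these, 1 was called higher and 2 lower, beside 48.4% and 51.3% of all tested genes. The transglutaminase TGM1 was called higher, at 1.71 ± 0.106 FPKM in PC9-GR and 0.827 ± 0.200 FPKM in PC9 (limma adjusted p = 0.000887). Another transglutaminase, TGM5, fell to 0.660 ± 0.277 FPKM in PC9-GR, against 4.20 ± 0.635 FPKM in PC9 (limma adjusted p = 6.89e-06), and it passed the filter through the PC9 libraries alone. The sulfotransferase SULT2B1 fell 2.68-fold (limma adjusted p = 2.03e-05). Below the filter beside ALOXE3 were the lipase PNPLA1, at 0.481 ± 0.159 FPKM in PC9-GR and 0.104 ± 0.0382 FPKM in PC9, and corneodesmosin (CDSN), at 0.152 ± 0.0497 FPKM in PC9-GR and 0.380 ± 0.0380 FPKM in PC9 (SD, n = 3 each). Of 7 keratinocyte markers 2 are in the table, and they went opposite ways. KRT5 was lower in PC9-GR, at 16.6 ± 3.99 FPKM, against 90.8 ± 20.7 FPKM in PC9 (limma adjusted p = 2.82e-06). DSG3, below the filter, measured 1.01 ± 0.208 FPKM in PC9-GR and 0.402 ± 0.0296 FPKM in PC9. Its libraries did not overlap, as was so for 94.8% of all listed genes.

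**Figure D4:**
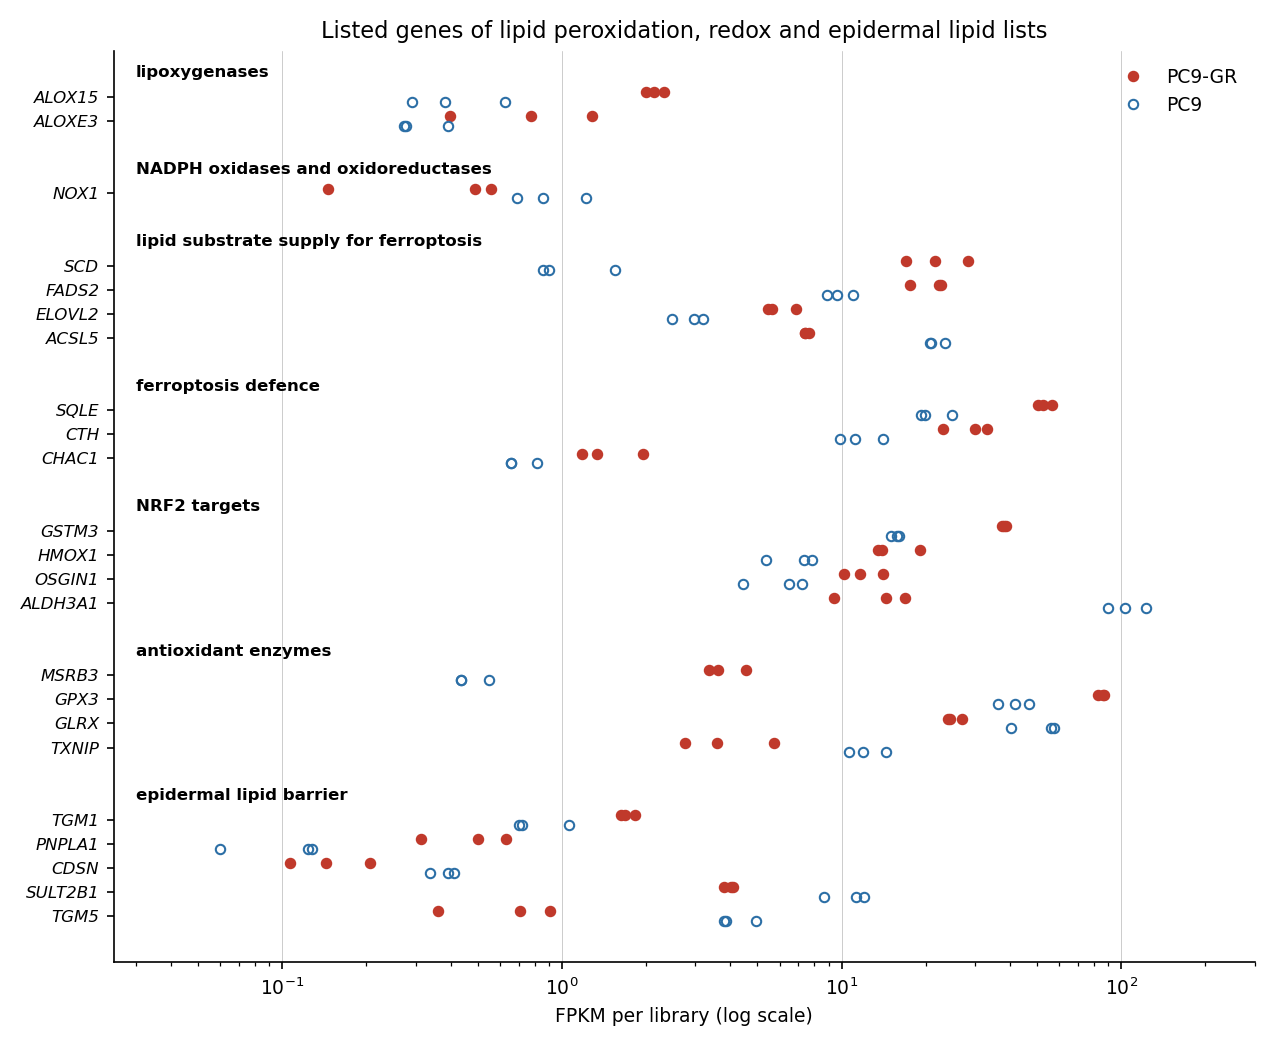
FPKM per library (x axis, log scale) of the listed genes in 7 of the lists, PC9-GR as filled red points above PC9 as open blue points; HMOX1, the only entry of the haem and iron list, is drawn under the NRF2 targets. ALDH3A1 stands apart among the NRF2 targets, with PC9-GR at 9.37 to 16.8 FPKM and PC9 at 89.5 to 122.7 FPKM.

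ALOX15 and HMOX1 are also expressed by macrophages, and some myeloid markers moved with the lines. Of 13 such markers 4 are in the table, and their summed level was 43.0 to 51.6 FPKM in PC9-GR and 18.7 to 22.0 FPKM in PC9. Most of that sum is CD68, at a mean of 38.4 FPKM in PC9-GR and 18.6 FPKM in PC9. ITGAM measured 7.25 ± 2.12 FPKM in PC9-GR and 0.570 ± 0.583 FPKM in PC9 (limma adjusted p = 1.28e-05), and ITGAX 2.83 ± 0.187 FPKM in PC9-GR and 0.119 ± 0.0281 FPKM in PC9 (limma adjusted p = 3.52e-07). CD68, a lysosomal protein that is not confined to myeloid cells, rose 2.07-fold to 38.4 ± 3.61 FPKM in PC9-GR (limma adjusted p = 1.08e-05). LYZ was low in PC9-GR, at 0.142 ± 0.125 FPKM, against 1.09 ± 0.459 FPKM in PC9, and 1 PC9-GR library was listed at 0.001 FPKM, the lowest value in the table. The defining marker PTPRC, and CD14 and CSF1R, were not analysed here, nor was any of the 11 eosinophil and mast cell markers, cells known for ALOX15. Of 9 fibroblast markers only PDGFRB is in the table, at 3.28 ± 0.780 FPKM in PC9-GR and 0.0948 ± 0.0423 FPKM in PC9 (limma adjusted p = 1.44e-06). ITGAX and PDGFRB were below 1 FPKM in every PC9 library and passed the filter through PC9-GR alone. The part of other cells in these results was not tested.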

How the data were processed

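Per the labels, total RNA of 3 PC9-GR and 3 PC9 cultures was made into libraries with a strand-specific Agilent SureSelect kit. TopHat and Cufflinks were used, per the submitters' processing notes; neither their versions nor the genome build, annotation or strand setting is given in the sources used here. The authors deposited FPKM per library and per group, with the ratio of PC9-GR over PC9, the log2 of that ratio, and its p-value and q-value, per the file headers. The lowest library value is 0.001 FPKM.

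From the deposited FPKM, log2(FPKM + 1) was tested with limma 3.58.1 in R 4.3.3 (variance trend, group as the only term, two-sided, Benjamini-Hochberg over the 1207 genes that reached 1 FPKM in 3 or more libraries). Genes below that filter had a two-sided exact permutation test over 20 splits. The limma step was tested on simulated data in which most genes were unchanged. Nearly all tested genes were called in this table, so the simulation gives no error rate for it. Counts were not used here, so no count model or counting interval was used.

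Alternatives were a pseudocount of 0.1, no filter, a filter at 5 FPKM, 3 scalings, no variance trend, a replicate block and leaving out each library. The genes and lists were chosen with earlier results of these data known, so lists are given by counts and medians only. Named list genes are the 2 called per direction with the largest log2 difference, all where a list has at most 5 in the table, and for each tested member the 3 genes closest in pattern, of which 1 is not reported here. Other cell markers and neighbouring genes, and the genes below the filter in the epidermal list, were named after their values were seen. Promoter windows are RefSeq's on GRCh38.p14, and table loci, whose build is not named, were not converted.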

Additional observations from a re-analysis of the deposited data

How the results depend on the processing

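ALOX15, HMOX1 and OSGIN1 kept their direction and their call in the 13, 14 and 14 alternatives that gave them a value; ALOX15 gave none under the filter at 5 FPKM. Their log2 differences with 1 library left out were 1.07 to 1.23, 0.92 to 1.16 and 0.71 to 1.02, with limma adjusted p of at most 9.92e-05, 0.000692 and 0.00313. ALOXE3 and NOX1 kept their direction in their 12 alternatives. With 1 library left out ALOXE3 ran from 0.26 to 0.62 and NOX1 from -0.55 to -0.33, with exact permutation p between 0.1 and 0.2. Without the filter on low values limma called ALOXE3 higher (log2 difference 0.44, adjusted p = 0.0342) and NOX1 lower (log2 difference -0.46, adjusted p = 0.0187). Over their other alternatives the exact permutation p ran from 0.1 to 0.3 for ALOXE3 and from 0.1 to 0.6 for NOX1. The 5 FPKM filter and the fit without a variance trend do not apply to them.

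With the filter at 5 FPKM, 234 genes were called higher and 393 lower among 629 tested, against 584 and 619 among 1207, since fewer genes are tested; 37.3% of these calls were higher, against 48.5%. With equal library totals 586 were called higher and 433 lower, so 57.5% of calls were higher. Leaving out 1 library gave 578 to 581 higher and 614 to 618 lower. The median log2 difference of all tested genes was -0.63 as deposited, -0.16 with equal library totals, -0.76 with median-ratio scaling and -0.28 under quantile normalization. The scalings use listed genes alone, and their totals follow the selection.

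The replicate numbers are shared between the lines, but nothing in the labels says that a number marks a shared day. Deviations from the line mean, over 1207 genes, correlated at -0.10, 0.08 and 0.16 for same-numbered libraries, and not every library correlated best with its own number. With the replicate block 586 genes were called higher and 619 lower. Limma adjusted p with the block was 7.18e-05 for ALOX15, 0.000611 for HMOX1 and 0.00213 for OSGIN1. For ALOXE3 and NOX1 the exact permutation p with swaps within pairs was 0.25, the smallest that 3 pairs allow. ALOXE3 and NOX1 were under 1.3 FPKM in every library, and the table gives no depth to set an interval by.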

Other observations

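The ratio that placed OSGIN1 in the table sits at its edge and depends on how the group value was formed. The authors' deposited table gives it a ratio of 2.03, while the ratio of the deposited library means was 1.98. It is 1 of 33 genes under a 2-fold ratio of library means, out of 1618 with no library at the lowest value (2.04%). The authors' group FPKM exceeded the mean of the libraries by a median of 2.12% in PC9-GR and 1.89% in PC9 over those 1618 genes. For HMOX1 it was 5.48% above the library mean in PC9-GR with a gap of -3.20% in PC9, which gives the authors' ratio of 2.47 beside a 2.26-fold ratio of library means. NOX1 had the widest gap of the 5 genes, -7.50% in PC9.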
